A study of Homo sapiens with 4 samples.

Results

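The nuclear genes for the respiratory chain and ATP synthase were examined in 2 human mantle cell lymphoma lines in which the kinase BTK was knocked down. All gene symbols of the deposited expression table that begin with NDUFA, NDUFB, NDUFC, NDUFS or NDUFV and a digit, with UQCR, with COX4 to COX8 or with ATP5, and the symbols SDHA to SDHD, were taken as members, whatever their values. They number 92 of 25277 symbols: 41 of complex I, 4 of complex II, 10 of complex III, 17 of complex IV and 20 of complex V. By kind they comprise 74 subunit genes, 7 tissue-specific or alternative isoform genes, 4 near-identical copies (ATP5EP2, ATP5L2, UQCRBP1 and UQCRHL), 2 readthrough loci, 2 antisense transcripts and 3 genes, ATP5S, ATP5SL and COX7A2L, that carry such a name without being counted here as subunits. The symbol places NDUFA4 and its paralog NDUFA4L2 in complex I, although the NDUFA4 protein is known as a component of complex IV.

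Stable derivatives of the established B-cell lines Mino and Z138 carried a tet-on vector with either a small hairpin against BTK or a control called sc4, and every culture received doxycycline for 48 hours. What sc4 expresses is not stated in the labels. The design gave 4 libraries, 1 for each line and vector, so the lines are the only replication of the knockdown, and nothing says whether the cultures of a line were grown separately beyond their vectors. BTK passes signals from the B-cell antigen receptor, and the series concerns its link to BCL2 expression in this lymphoma.

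Oxidative phosphorylation takes electrons from NADH at complex I and from succinate at complex II, passes them through ubiquinone, complex III and cytochrome c to oxygen at complex IV, and uses the proton gradient built on the way to make ATP at complex V. Apart from complex II, each complex joins subunits encoded in the nucleus with a few encoded by mitochondrial DNA, and the nuclear ones must be imported and assembled in fixed proportions. Lymphoma lines differ in how far they rely on this pathway, and RNA levels report neither the amount of assembled complex nor respiration.

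Values are FPKM, fragments normalised to transcript length and to mapped fragments, which allows levels of different genes to be compared, and where 2 values are given for a line the control comes before the hairpin. BTK, the targeted gene, had 37.0 and 9.84 FPKM in Mino, 51.0 and 12.4 in Z138. The hairpin libraries were lower in both lines, by a mean of -1.88 on the log2(FPKM + 1) scale (SE 0.13, limma adjusted p = 0.000964). In bulk RNA, fewer cells with the transcript and less of it per cell cannot be told apart. The B-cell genes CD79A (557 to 744 FPKM), CD79B (271 to 411), MS4A1 (43.5 to 113) and PAX5 (14.5 to 22.9) were present in all libraries, as was SOX11 (19.8 to 23.6). CCND1, the cyclin gene that marks this lymphoma, was at 591 and 600 FPKM in Z138 but at 3.18 and 2.62 in Mino. The reason for the low Mino values was not tested, and the naming of the lines rests on the labels. Of 7 markers of other cells, CD3D, CD14 and LYZ were under 0.3 FPKM, CD3E reached 2.07, NKG7 1.29, COL1A1 4.55 and EPCAM 7.56, the highest COL1A1 and EPCAM values being those of Mino. Ribosomal protein genes took 36.5% to 44.4% of the summed FPKM, more in Z138, and EEF1A1, an elongation factor gene at 6404 to 6976 FPKM in the other libraries, had a listing of 0 in the Z138 control. The Z138 hairpin ratio was lower for transcripts of higher GC content across 11245 symbols (Spearman rho -0.56, against 0.11 in Mino).

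Subunit RNAs were abundant. Testing required a mean FPKM of 1 or more, which 11484 symbols met, among them 80 members: 39 of complex I, all 4 of complex II, 8 of complex III, 12 of complex IV and 17 of complex V. All 74 subunit genes passed. The other members tested were the isoform genes COX4I2 and NDUFA4L2, the antisense transcript NDUFA6-AS1 and the 3 genes not counted as subunits. The tested members had a median level of 129 FPKM, against 10.48 for all symbols tested. By complex the median was 90.1 FPKM for I, 59.98 for II, 106 for III, 315 for IV and 187 for V.

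Within each complex levels spread over more than an order of magnitude, except in complex II. The highest mean levels in complex I belonged to NDUFA13 (528 FPKM), an accessory subunit also known as GRIM-19, to NDUFA3 (396) and to NDUFS5 (266). At the other end were the antisense transcript NDUFA6-AS1 (1.90 FPKM) and the accessory subunit NDUFA5 (10.47). In complex II the flavoprotein gene SDHA led with 117 FPKM, and the membrane anchor gene SDHC was lowest with 32.9. UQCRH, the hinge protein that helps cytochrome c dock, reached 573 FPKM in complex III, above the Rieske iron-sulfur protein UQCRFS1 (172) and the core protein UQCRC1 (134), while UQCRB (22.7) and UQCR11 (43.6) were lowest. COX7C (1133 FPKM), COX6A1 (887) and COX4I1 (731) led complex IV, where COX4I2 (3.98) and COX7A2L (108) were the lowest tested. Complex V was led by the c-ring gene ATP5G2 (936 FPKM), by ATP5E (920) and by the catalytic beta subunit ATP5B (634), and its lowest were ATP5S (7.48) and ATP5SL (49.0).

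The order of levels was nearly the same with and without the hairpin. Across the 80 tested members, Spearman's rho between control and hairpin was 0.995 in Mino and 0.997 in Z138, and 0.902 between the controls of the lines. These are descriptions across genes of the same libraries, and genes are not independent replicates.

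The first comparison asked whether subunit RNAs differed between hairpin and control. None of the 80 members passed the test in either direction (limma on log2(FPKM + 1) with line and hairpin as terms, adjusted over 11484 symbols), with 2 members, NDUFC1 and NDUFA4L2, at an unadjusted p under 0.05. Among all symbols tested 0.061% were called higher and 0.061% lower, and 320 had an unadjusted p under 0.05. Each gene's fit has 1 residual degree of freedom, and p-values measure how alike the lines responded. At 1.5-fold, without a test, 1 member was lower in Mino (NDUFA4L2) and none higher, beside 1.24% and 0.923% of all symbols. In Z138 no member reached 1.5-fold, beside 0.819% of all symbols lower and 0.94% higher.

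Hairpin ratios of the members lay close to 0. On the log2 scale their median was -0.0067 in Mino, against -0.0079 for all symbols tested, and -0.043 in Z138, against 0.026. Both ratios lay within 0.25 of 0 for 67 of 80 members (83.8%), compared with 67.7% of all symbols tested, most of which are expressed at a lower level. Ratios were above 0 for 37 members in Mino and 31 in Z138, with 11 above 0 and 22 below 0 in both lines. The same sign in both lines was thus seen for 41.3% of members and for 42.5% of all symbols tested. The median by complex ran from -0.032 (IV) to 0.017 (V) in Mino and from -0.060 (III and IV) to 0.049 (II) in Z138.

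**Figure D1:**
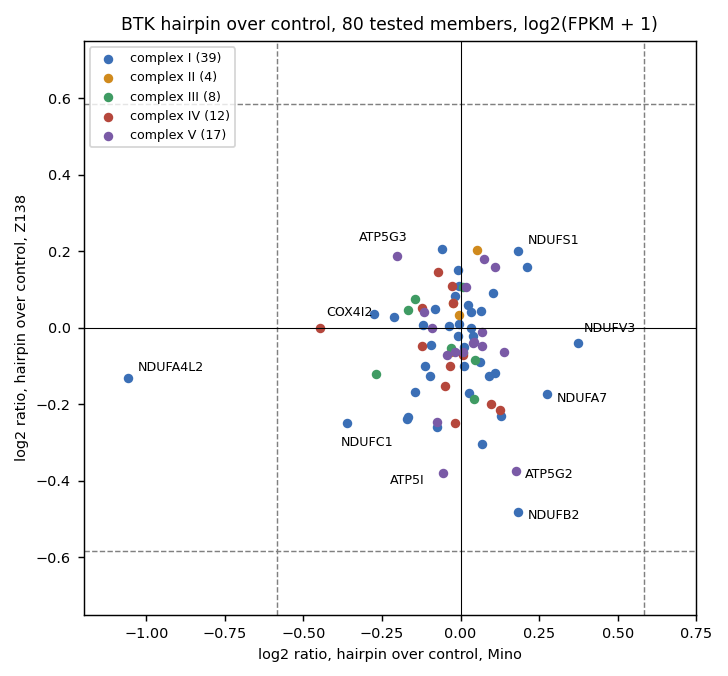
Log2 ratio of hairpin over control in Mino (x axis) and Z138 (y axis) for the 80 tested members on the log2(FPKM + 1) scale; each point is 1 gene, coloured by complex, and dashed lines mark 1.5-fold. Most points crowd around 0, NDUFA4L2 alone lies past the line in Mino, and none lies past it in Z138.

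NDUFA4L2, a paralog of NDUFA4 known as a hypoxia-induced gene, gave the largest ratio of the tested members. Its levels were 31.1 and 14.4 FPKM in Mino, 20.4 and 18.5 in Z138. The Mino control was the highest library and the Mino hairpin library the lowest, so the hairpin value was 46.3% of control in Mino and 90.8% in Z138. The log2 ratios were -1.06 and -0.13, with a mean of -0.60 (SE 0.21, limma adjusted p = 1.00). Its partner by name, NDUFA4, was level, with 95.5 and 94.4 FPKM in Mino and 82.8 and 87.7 in Z138. The ratio of NDUFA4L2 to NDUFA4 was therefore 0.326 and 0.153 in Mino and 0.246 and 0.211 in Z138.

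Among complex I subunits, NDUFC1, a small accessory subunit, was lower with the hairpin in both lines without passing the adjusted test. Its levels were 53.7 and 41.6 FPKM in Mino and 33.9 and 28.4 in Z138. Both hairpin libraries lay below their own control, with log2 ratios of -0.36 and -0.25 and a mean of -0.31 (SE 0.12, limma adjusted p = 1.00). Smaller ratios of one sign were -0.17 and -0.24 for NDUFA13 and -0.17 and -0.23 for NDUFA1, an accessory subunit of the membrane arm. On the other side were NDUFS1, the largest iron-sulfur subunit, at 0.18 and 0.20, NDUFB6 at 0.21 and 0.16, and NDUFS8 at 0.10 and 0.09. NDUFV3 had the highest ratio of any tested member in Mino, 0.37, and -0.04 in Z138. None of these passed the adjusted test.

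In the other complexes most members with ratios of one sign lay nearer to 0. SDHD had ratios of 0.05 and 0.20, and SDHA of -0.03 and -0.06. In complex III, UQCRH stood at 624 and 517 FPKM in Mino and 600 and 552 in Z138, which gave ratios of -0.27 and -0.12. UQCRFS1 (-0.03 and -0.05) and the core protein gene UQCRC2 (0.01 and 0.11) were nearer to 0. Cytochrome c oxidase had no member above 0 in both lines, and its ratios below 0 in both were those of COX7A2 (-0.05 and -0.15), COX5A (-0.12 and -0.05), COX8A (-0.04 and -0.10) and COX6B1. For ATP synthase, ATP5C1, the gamma subunit of the central stalk, had ratios of 0.07 and 0.18, ATP5S of 0.11 and 0.16, and the stator subunit gene ATP5F1 of 0.02 and 0.11. Below 0 in both lines were ATP5G1 (-0.08 and -0.25), ATP5I (-0.06 and -0.38) and ATP5SL (-0.04 and -0.07).

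Most members had ratios of opposite sign in the lines, since 33 of 80 had the same sign. The same sign was likewise seen for only 42.5% of all symbols tested. NDUFB2, an accessory subunit of complex I, was at 111 and 126 FPKM in Mino and 321 and 230 in Z138, a log2 ratio of 0.18 and then -0.48. The c-ring gene ATP5G2 had 660 and 745 FPKM in Mino, 1320 and 1019 in Z138 (0.18 and -0.37). In both cases the Z138 control was the highest of the 4 libraries. Ratios were 0.27 and -0.17 for NDUFA7, 0.13 and -0.23 for NDUFB1, 0.11 and -0.12 for NDUFS3, 0.13 and -0.22 for COX6A1, 0.10 and -0.20 for COX7C, and -0.20 and 0.19 for ATP5G3. Smaller opposite ratios were found for UQCRB (-0.15 and 0.08), UQCRQ (0.05 and -0.08), SDHC (-0.03 and 0.06) and SDHB (-0.01 and 0.03). With 1 library per line and vector the difference between these ratios cannot be tested.

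Transcript composition moved with the Z138 ratios of the members. Across the 80 members the Z138 ratio had a Spearman rho of -0.40 with GC content and 0.35 with transcript length, and the Mino ratio -0.12 and 0.31. Across 11245 symbols the values were -0.56 and 0.24 for Z138. For Mino they were 0.11 and -0.16, opposite in sign to those of the members. Tested members had a median GC content of 47.9% and a median length of 1510.5 bases, against 48.7% and 3522 bases for all symbols tested. The trends removed were those fitted across all symbols, not those of the members. After this the median ratio of the members was -0.023 in Mino and -0.011 in Z138, and still none passed the test. The part of GC content and length in single ratios was not tested.

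The second comparison set Z138 against Mino, with both vectors of a line pooled as its libraries. Of 80 tested members 34 were higher in Z138 (42.5%), 21 were lower (26.25%) and 25 did not pass the test. This has to be read against a large difference between the lines as a whole: 28.7% of all symbols tested were called higher in Z138 and 38.8% lower. The p-values rest on 2 libraries per line that differ in vector. Where genes are said below not to overlap between the lines, the share of all symbols like this was not counted. With 67.4% of all symbols tested called in one direction or the other, such separation is not shown to be particular to members. The median log2 difference, Z138 minus Mino, was 0.14 for the members and -0.12 for all symbols tested. Members lay 0.26 above the median of all symbols, and that gap was 0.25 to 0.28 under the other scalings tried, which themselves put the median of all symbols between -0.23 and -0.012. The split of members moved with the scaling, to 29 higher and 25 lower with columns rescaled to equal totals (TPM) and to 38 and 14 with median-ratio scaling. Calls over all 11484 symbols tested moved the same way, from 3293 higher and 4452 lower as deposited. They became 2818 and 4940 with TPM and 3898 and 4009 with median ratios. Of the 55 called members, 43 kept their call and sign under every scaling.

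Calls went both ways inside each complex, and the counts under each scaling are to be read beside those of all symbols given above. Complex V leaned to Z138, with 11 of 17 tested members higher, 3 lower and a median of 0.54, and the TPM and median-ratio scalings gave 10 and 11 higher with 3 lower in each. Complex I had 17 higher, 10 lower and 12 not called, with a median of 0.0048, which became -0.11 under the TPM scaling (13 higher, 11 lower) and 0.13 with median ratios (18 higher, 5 lower). In complex III 2 were higher and 4 lower (median -0.18), in complex IV 3 were higher and 3 lower (median -0.021), and in complex II 1 was higher and 1 lower (median 0.044). Complex IV turned with the scaling, to 3 higher and 6 lower with TPM (median -0.14) and 5 higher and 2 lower with median ratios (0.10). A difference of at least 2-fold was found for 7 members in each direction, together 17.5% of those tested, against 29.8% of all symbols tested.

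**Figure D2:**
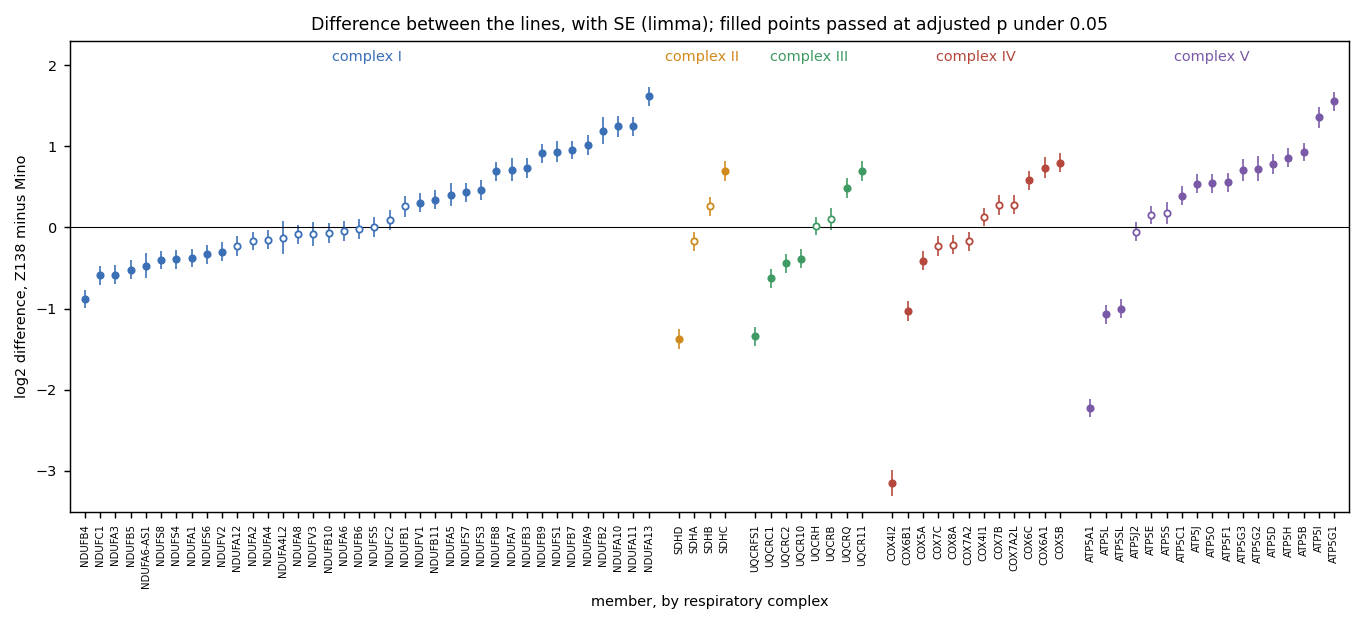
Log2 difference, Z138 minus Mino, with its SE from limma (y axis, log2(FPKM + 1) scale) for tested members (x axis), ordered within complex; filled points passed at an adjusted p under 0.05. Values run from -3.15 for COX4I2 to 1.61 for NDUFA13, and each complex holds points on both sides of 0.

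ATP synthase showed the widest split between partners. ATP5A1 and ATP5B encode the alpha and beta subunits, which alternate in the catalytic head in equal number. ATP5A1 was at 955 and 982 FPKM in Mino, 209 and 203 in Z138, while ATP5B was at 425 and 446 and then 836 and 828. Mino thus held 4.70 times the ATP5A1 level of Z138 (log2 difference -2.23, SE 0.11, limma adjusted p = 1.52e-06), and Z138 held 1.91 times the ATP5B level of Mino (0.93, SE 0.11, adjusted p = 0.000162). Neither gene overlapped between the lines. The ratio of ATP5A1 to ATP5B, which no scaling of the libraries can alter, was 2.24 and 2.20 in Mino and 0.2502 and 0.2453 in Z138.

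Other ATP synthase genes were mostly higher in Z138. The c-ring gene ATP5G1 was at 96.6 and 91.6 FPKM in Mino and 303 and 255 in Z138 (log2 difference 1.55, SE 0.12, limma adjusted p = 1.17e-05). ATP5I, a small membrane subunit, was at 352 and 338 and then 1009 and 775 (1.36, SE 0.13, adjusted p = 3.59e-05). For both genes each Z138 library lay above each Mino library. Smaller differences in the same direction were called for ATP5H (0.86), ATP5D (0.78), ATP5G2 (0.73), ATP5G3 (0.70), ATP5F1 (0.55), ATP5O (0.54), ATP5J (0.54) and ATP5C1 (0.39), of which ATP5C1 did not pass under the TPM scaling. ATP5L, another small membrane subunit, was higher in Mino, at 165 and 170 FPKM against 80.2 and 78.1 (-1.07, SE 0.12, adjusted p = 8.43e-05), as was ATP5SL (-1.001). ATP5E, ATP5J2 and ATP5S did not pass the test.

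ATP5G1, ATP5G2 and ATP5G3 encode the same mature c subunit behind different import sequences. Their RNAs are alike enough that counting could share reads among them or with related copies, so the values of single genes are uncertain. Summed, they stood at 803 and 877 FPKM in Mino and 1690 and 1350 in Z138. ATP5G2 held 82.1% and 84.9% of the sum in Mino and 78.1% and 75.4% in Z138. ATP5G1 held 12.03% and 10.45% and then 17.9% and 18.9%, and ATP5G3 between 3.97% and 5.83% in every library. ATP5G2 was thus the main c-ring transcript throughout, with a larger ATP5G1 share in both Z138 libraries.

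Complex II, which also works in the TCA cycle, split between its membrane anchors. SDHD was at 82.2 and 85.4 FPKM in Mino and 29.4 and 34.0 in Z138 (log2 difference -1.38, SE 0.12, limma adjusted p = 2.66e-05), 2.64 times higher in Mino. SDHC went the other way, at 25.1 and 24.6 FPKM and then 40.0 and 41.9 (0.70, SE 0.12, adjusted p = 0.00127). Neither overlapped between the lines, and SDHD exceeded SDHC 3.28 and 3.47 times in Mino but was 0.736 and 0.813 of it in Z138. The catalytic subunits differed less: SDHA, the flavoprotein, was at 125 and 122 and then 112 and 107 FPKM (-0.17, adjusted p = 0.217). SDHB, the iron-sulfur protein, was at 56.6 and 56.4 and then 67.1 and 68.7 (0.26, adjusted p = 0.0826), a value that passed the test under the median-ratio scaling (0.38) and with ribosomal protein genes left out of the scaling (0.30).

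In complex III the Rieske protein gene UQCRFS1 was higher in Mino, at 250 and 245 FPKM against 98.9 and 95.2 in Z138 (log2 difference -1.34, SE 0.11, limma adjusted p = 2.16e-05). Both core protein genes followed the same direction, UQCRC1 with -0.63 and UQCRC2 with -0.44, and so did UQCR10 (-0.39), which missed the threshold under median-ratio scaling (-0.26). UQCR11 (0.69) and UQCRQ (0.49), both small accessory subunits, were higher in Z138, and UQCRH and UQCRB did not pass. The ratio of UQCRFS1 to UQCRQ was 5.30 and 5.02 in Mino and 1.42 and 1.45 in Z138.

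Complex IV had 3 members higher in Z138, COX5B (log2 difference 0.80), COX6A1 (0.74) and COX6C (0.58). COX6B1, which faces the intermembrane space, was at 958 and 947 FPKM in Mino and 508 and 427 in Z138 (-1.03, SE 0.12, limma adjusted p = 0.000125). COX5A was lower in Z138 by a smaller margin (-0.41, adjusted p = 0.0131), a call that was lost under median-ratio scaling (-0.28). COX4I1, the regulatory subunit IV, was level between the lines, at 696 and 700 FPKM and then 783 and 745 (0.13, adjusted p = 0.335). COX7A2, COX7B, COX7C, COX8A and COX7A2L did not pass either, although each was called under at least 1 other scaling.

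The alternative isoforms of complex IV, which are known from muscle, lung or testis, were near 0. COX7A1 was listed at 0 in all libraries, and COX6A2, COX6B2, COX7B2 and COX8C did not exceed 0.489 FPKM in any. Their widely expressed counterparts COX6A1, COX6B1, COX7A2, COX7B and COX8A ranged from 250.5 to 1192 FPKM. COX4I2 was the exception, with 9.35 and 6.58 FPKM in Mino and a listing of 0 in both Z138 libraries. It was called lower in Z138 (limma adjusted p = 1.38e-06), but its log2 difference is set by the pseudocount, from -3.15 with 1 to -6.31 with 0.1, and no fold can be given. Even in Mino COX4I2 amounted to 0.0134 and 0.0094 of COX4I1. In complex III the copy UQCRHL reached 1.02 FPKM, against 517 to 624 for UQCRH. The other copies and the readthrough loci NDUFC2-KCTD14 and ATP5J2-PTCD1 did not exceed 0.466 FPKM, with ATP5EP2 and ATP5L2 listed at 0 throughout, and the antisense transcript NDUFB2-AS1 was at 0.0880 and 0.165 FPKM in Mino and 1.33 and 1.49 in Z138. These 12 members were not tested, and 82 of the 92 had a value above 0 in every library.

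The nuclear core subunits of complex I include those that carry the flavin and the iron-sulfur clusters. Among the core subunits NDUFS1 (log2 difference 0.93), NDUFS3 (0.46), NDUFS7 (0.43) and NDUFV1 (0.31) were higher in Z138, and NDUFS8 (-0.40) and NDUFV2 (-0.30) were lower. Several of these calls depend on the scaling: NDUFV1 did not pass with TPM, and NDUFS8 and NDUFV2 did not pass with median ratios. NDUFS1 was at 11.8 and 13.5 FPKM in Mino and 23.2 and 26.8 in Z138.

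Of 31 genes grouped as accessory to complex I by symbol, 12 were higher in Z138, 7 lower and 12 not called, the last including NDUFA4 and NDUFA4L2. NDUFA13 was at 274 and 244 FPKM in Mino and 862 and 731 in Z138 (log2 difference 1.61, SE 0.11, limma adjusted p = 7.76e-06), a 3.07-fold higher mean in Z138. NDUFA11, of the membrane arm, was at 149 and 152 and then 381 and 339 (1.25, SE 0.12, adjusted p = 4.06e-05). NDUFA10, a matrix subunit related to deoxynucleoside kinases, was at 8.10 and 7.61 and then 19.6 and 20.3 (1.24, SE 0.13, adjusted p = 7.53e-05). In all 3 genes the lines did not overlap, which was not counted over all symbols. Further members called higher were NDUFB2 (1.19), NDUFA9 (1.02), NDUFB7 (0.95), NDUFB9 (0.91), NDUFB3 (0.73), NDUFA7 (0.71), NDUFB8 (0.69), NDUFA5 (0.40) and NDUFB11 (0.34), the last 2 of which did not pass under the TPM scaling.

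Accessory subunits higher in Mino differed by less. NDUFB4, of the membrane arm, was at 256 and 236 FPKM in Mino and 137 and 128 in Z138 (log2 difference -0.88, SE 0.11, limma adjusted p = 0.000222). NDUFA3 was at 473 and 476 and then 328 and 306 (-0.58, SE 0.11, adjusted p = 0.00234). Neither overlapped between the lines. NDUFC1 (-0.59), NDUFB5 (-0.52), NDUFS4 (-0.39), NDUFA1 (-0.38) and NDUFS6 (-0.33) were also called lower, of which NDUFS4, NDUFA1 and NDUFS6 did not pass with median ratios. The antisense transcript NDUFA6-AS1 was called lower as well (-0.47), but no source used here says whether strand was used in counting, so its reads and those of NDUFA6 may not be separable.

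**Figure D3:**
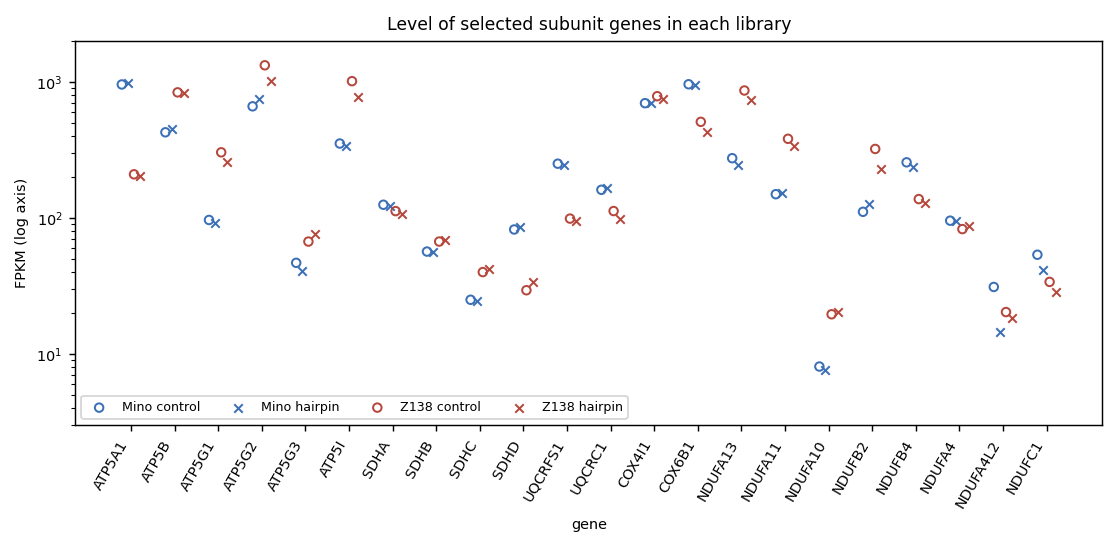
FPKM on a log axis (y axis) of 22 subunit genes (x axis) in each library, with Mino in blue, Z138 in red, circles for control and crosses for hairpin. Circle and cross of a line nearly coincide for most genes, while the lines stand apart in opposite directions for ATP5A1 and ATP5B and for SDHD and SDHC; NDUFA4L2 in Mino is the widest gap between circle and cross.

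Sequences upstream of 4 subunit genes are shown because these genes had the largest differences between the lines, 2 in each direction, among subunit genes with a single start in the RefSeq promoter table (GRCh38.p14). Each runs from 250 bases before to 50 bases after the start, and capitals mark matches to any of 3 motifs of factors known to act at respiratory genes, searched on both strands: GCGCANGCG for NRF1, AAGATGGC for YY1 and CCGGAAGT for ETS factors such as GABP. SDHD and UQCRFS1 were higher in Mino, and ATP5G1 (ATP5MC1 in RefSeq) and NDUFA13 were higher in Z138.
SDHD: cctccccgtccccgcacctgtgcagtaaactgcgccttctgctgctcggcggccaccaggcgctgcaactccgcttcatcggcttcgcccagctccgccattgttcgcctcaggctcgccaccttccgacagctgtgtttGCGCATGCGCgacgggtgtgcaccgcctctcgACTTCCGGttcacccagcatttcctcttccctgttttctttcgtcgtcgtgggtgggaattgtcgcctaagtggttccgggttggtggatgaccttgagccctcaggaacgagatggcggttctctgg
UQCRFS1: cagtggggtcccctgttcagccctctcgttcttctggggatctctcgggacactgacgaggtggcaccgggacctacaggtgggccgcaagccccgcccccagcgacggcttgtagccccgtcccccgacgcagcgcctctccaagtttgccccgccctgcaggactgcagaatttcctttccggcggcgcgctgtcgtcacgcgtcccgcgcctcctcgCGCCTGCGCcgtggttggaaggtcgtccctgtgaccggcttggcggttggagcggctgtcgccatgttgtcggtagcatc
ATP5G1: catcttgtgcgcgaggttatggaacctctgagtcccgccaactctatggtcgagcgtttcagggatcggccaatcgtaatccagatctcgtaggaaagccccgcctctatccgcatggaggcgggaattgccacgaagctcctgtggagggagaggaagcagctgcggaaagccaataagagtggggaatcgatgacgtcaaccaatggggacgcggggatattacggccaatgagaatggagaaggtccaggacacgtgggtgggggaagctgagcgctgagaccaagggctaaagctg
NDUFA13: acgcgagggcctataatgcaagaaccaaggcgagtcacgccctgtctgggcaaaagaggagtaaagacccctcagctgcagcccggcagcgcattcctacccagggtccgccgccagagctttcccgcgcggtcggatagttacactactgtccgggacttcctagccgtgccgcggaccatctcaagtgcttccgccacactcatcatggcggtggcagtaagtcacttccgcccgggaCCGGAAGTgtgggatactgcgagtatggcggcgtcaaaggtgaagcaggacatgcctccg
The SDHD window lies at chr11:112086623-112086922 on the plus strand and holds 2 overlapping NRF1 matches and 1 ETS match. The UQCRFS1 window, at chr19:29213102-29213401 on the minus strand, holds 1 NRF1 match. No match was found in the ATP5G1 window (chr17:48892537-48892836, plus strand), and 1 ETS match in the NDUFA13 window (chr19:19515975-19516274, plus strand). A match is a description of the letters and does not show binding.

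Such motifs were common upstream of the subunit genes as a whole. Of 76 tested subunit genes 63 were matched to the table, and a gene with several starts was counted if any of its windows held the motif. NRF1 letters were found for 21 of them (33.3%), against 9.02% of 27305 genes in the table and 18.2% of the 8494 that could be matched to tested symbols. YY1 letters were found for 12 (19.05%, against 3.52% and 7.13%) and ETS letters for 11 (17.5%, against 4.95% and 10.9%). At least 1 motif was present for 35 of 63 and none for 28. The share with at least 1 motif was not counted over all genes in the table or over the tested symbols. The count of 35 therefore has no baseline and is not shown to be particular to subunit genes. The median log2 difference between the lines was 0.39 for the 21 genes with NRF1 letters and 0.074 for the 42 without. For YY1 the medians were 0.49 with and -0.015 without, and for ETS 0.54 and -0.029. These gaps were not tested, and the same split was not made over all tested symbols, so they are not shown to be particular to subunit genes. SDHD, among the lowest members in Z138 relative to Mino, holds both NRF1 and ETS letters.

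Summed over the 81 subunit and isoform genes, levels reached 16185 and 16137 FPKM in Mino, 18867 and 17302 in Z138. These sums are 2.42%, 2.41%, 2.55% and 2.43% of all FPKM in the library, so the share differed little among libraries. With ribosomal protein genes left out of the total the shares were 3.81%, 3.92%, 4.58% and 4.33%, higher in both Z138 libraries. Complex V summed to 4803 and 4930 FPKM in Mino and 6445 and 5822 in Z138, complex I to 4388 and 4272 and then 5547 and 5094. Complex IV was alike in the lines in unscaled FPKM (5324, 5374, 5490 and 5061), whereas complex III (1382, 1271, 1135 and 1074) and complex II (289, 289, 249 and 252) were lower in Z138. All FPKM summed to 669475 and 669013 in Mino and 740192 and 712326 in Z138. As a share of that total complex IV was lower in Z138, at 0.795% and 0.803% and then 0.742% and 0.710%. With ribosomal protein genes left out its shares were 1.25%, 1.31%, 1.33% and 1.27%. Both Z138 sums for complexes I and V exceeded both Mino sums. A sum is weighted to its most abundant members and carries no test.

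**Figure D4:**
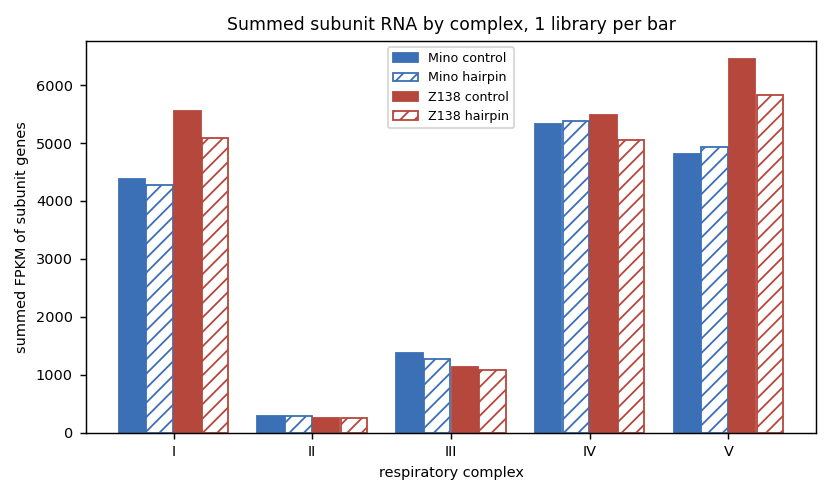
Summed FPKM of the subunit and isoform genes of each respiratory complex (y axis, bars from 0) by complex (x axis) in the 4 libraries, filled for control and hatched for hairpin, 1 library per bar. In these unscaled sums complexes I and V are higher in both Z138 libraries, complexes II and III are lower there, and complex IV is alike.

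Other genes of the same organelle gave context, as counts and medians of lists rather than tests of them. None of the 207 listed genes tested passed the hairpin comparison, beside 0.061% of all symbols tested called higher and 0.061% lower. At so low a share, the lack of calls is not shown to be particular to these genes. One assembly factor had an unadjusted p under 0.05: C17orf89, needed for complex I assembly, at 28.9 and 21.4 FPKM in Mino and 168 and 132 in Z138 (log2 ratios -0.42 and -0.35, limma adjusted p = 1.00). Between the lines, 28.7% of all symbols tested were called higher in Z138 and 38.8% lower. Of 53 assembly factors 28 were higher in Z138 and 10 lower, with a median log2 difference of 0.38. Of 27 protein import genes 17 were higher and 3 lower (median 0.78), and of 76 mitochondrial ribosomal protein genes 39 were higher and 6 lower (median 0.37). These medians, like that of 0.14 for the subunits, stood above the -0.12 of all symbols tested, and stayed above the median of all symbols under each scaling. The counts moved with the scaling. In the same order of lists they were 24 higher and 14 lower, 16 and 4, and 32 and 10 with TPM. With median ratios they were 32 and 10, 18 and 2, and 47 and 5. Over all 11484 symbols tested, 2818 were called higher and 4940 lower with TPM, and 3898 and 4009 with median ratios.

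Genes next to the subunits in the pathway differed in both directions. CYCS, the cytochrome c that links complexes III and IV, was at 17.3 and 17.9 FPKM in Mino and 43.8 and 46.0 in Z138 (log2 difference 1.30). CYC1, the cytochrome c1 of complex III, which the symbol rule misses, was also higher in Z138 (0.44), as were NDUFAB1 (0.33) and USMG5, a small subunit of ATP synthase (1.13), of which NDUFAB1 did not pass under the TPM scaling (0.21). GPD2, which feeds electrons from glycerol 3-phosphate to ubiquinone, was lower, at 8.18 and 7.02 and then 0.493 and 0.569 FPKM (-2.49). Of 15 genes for cytochrome c and electron carriers 7 were higher and 5 lower, and of 17 TCA cycle enzymes 7 were higher, among them SUCLA2 (1.14) and FH (0.90), and 2 lower. The carrier counts were 7 and 5 with TPM and 8 and 5 with median ratios. The TCA cycle counts were 6 and 2, then 8 and 1. Among all symbols tested, 28.7% were called higher in Z138 and 38.8% lower as deposited. With lists this short the counts are not shown to be particular to them.

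Among 14 tested regulators of mitochondrial biogenesis 6 were higher in Z138 and 2 lower, beside 28.7% and 38.8% of all symbols tested. The regulator counts became 6 and 3 with TPM and 9 and 1 with median ratios. Counts of all symbols under these scalings are given above. PPRC1, a coactivator of the PGC-1 family, was at 7.21 and 7.27 FPKM in Mino and 27.7 and 25.7 in Z138 (log2 difference 1.75). NRF1 itself was level, at 8.50 and 8.10 and then 8.57 and 8.19 FPKM (0.012), whereas C10orf2, the mitochondrial helicase, was higher in Z138 (2.003) and POLG, the mitochondrial DNA polymerase, lower (-0.80). YY1 was called lower (-0.39, limma adjusted p = 0.0474), a call lost under median-ratio scaling and with ribosomal protein genes left out. Of the GABP genes, GABPA did not pass (-0.41, limma adjusted p = 0.0511), although it did with TPM, and GABPB1 was level (0.067). Any link to the motif medians was not tested. TIMM13, an import chaperone, was at 6.82 and 6.47 and then 51.1 and 45.8 FPKM (2.69), and HSPA9, the matrix import motor, at 79.5 and 95.0 and then 242 and 263 (1.53). No symbol of the subunits encoded by mitochondrial DNA was matched, and these were not analysed here.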

How the data were processed

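Libraries had been prepared from total RNA with a TruSeq kit, per the labels' protocols. The authors deposited FPKM values in 1 table with a column per library and 25277 symbols, per the file headers. Per the submitters' processing notes TopHat and hg19 were used, with no version named. The program, annotation and filters behind FPKM are named in no source used here, so depth is unknown. Each column was matched to a library by its label. Values were taken as log2(FPKM + 1), low symbols (mean FPKM under 1) were dropped, and limma 3.58.1 in R 4.3.3 was fitted with a mean-variance trend to all 4 libraries with line and hairpin as terms, adjusting over 11484 symbols by Benjamini-Hochberg at 0.05. The fit was tested on simulated data. GC content and transcript length came from GENCODE, and promoters from RefSeq. The members and lists were chosen with earlier results of these data known. Genes named are those that passed the test, the highest and lowest levels, the largest ratios of one or opposite sign by complex, and isoform families. Alternatives changed the pseudocount, filter, scaling, model terms, trend, and GC and length correction. Values of some genes are not reported here.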

Additional observations from a re-analysis of the deposited data

Results flagged for a closer look

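Of the 80 tested members, 7 had a hairpin ratio at least 0.1 above 0 in one line and at least 0.1 below 0 in the other, on the log2 scale. The difference of the ratios, Z138 minus Mino, was -0.664 for NDUFB2, -0.549 for ATP5G2, -0.449 for NDUFA7, -0.360 for NDUFB1, -0.342 for COX6A1, -0.229 for NDUFS3 and 0.390 for ATP5G3. These differences were not tested, since each ratio comes from 1 pair of libraries. How many of all symbols tested meet the rule of 0.1 was not counted. The count of 7 therefore has no baseline and is not shown to be particular to members. Between the Mino and Z138 ratios, Spearman's rho was -0.17 across all symbols tested and -0.014 across the members. Within the c-ring family ATP5G2 and ATP5G3 lay on opposite sides of 0 in both lines, but reads could be shared between them, so their single values are uncertain. With the GC and length trends of the ratios removed, the Z138 ratio was -0.52 for NDUFB2, -0.36 for ATP5G2, -0.30 for COX6A1, -0.32 for NDUFB1, -0.056 for NDUFA7, -0.0089 for NDUFS3 and 0.072 for ATP5G3. NDUFA7, NDUFS3 and ATP5G3 thus no longer met the rule of 0.1.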

How the results depend on the processing

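No member passed the hairpin comparison under any of the 13 alternatives (limma), and 1 to 3 had an unadjusted p under 0.05 except without line as a term, where none had. Without a filter 2 members passed 1.5-fold in Mino. The median log2 difference between the lines was 0.089 without a filter, 0.166 with a mean of at least 5 FPKM, 0.152 without symbols listed at 0, 0.023 with TPM, 0.265 with median ratios, 0.185 when scaled without ribosomal protein genes, 0.078 with GC and length trends of the ratios removed and 0.151 with those of the line difference removed, the last chosen after seeing the data. The median Z138 hairpin ratio was -0.045 without symbols listed at 0, 0.0089 with TPM, -0.097 with median ratios, -0.0020 without ribosomal protein genes and -0.011 with GC and length trends removed, and the Mino one 0.0015 with median ratios, 0.038 without ribosomal protein genes and -0.023 with those trends removed. Of the 55 members called between the lines 48 to 55 kept call and sign under single alternatives, and 41 under every one. Of the 14 at 2-fold or more 13 did so, the exception being COX4I2, which stricter filters leave out. No called difference changed sign. The hairpin fit is paired by line, each hairpin library being set against its own line's control. Leaving out a library would leave no residual degree of freedom. FPKM without counts gives no depth, so the precision of low values is unknown.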

Other observations

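Genes next to the members that differed 2-fold or more between the lines were looked at after the values had been seen, as the 5 tested genes on each side in RefSeq order. Next to ATP5A1 (log2 difference, Z138 minus Mino, -2.23) all 10 neighbours were below 0, with a median of -2.23 and a range from -3.17 to -0.33. All 10 neighbours of COX6B1 (-1.03) were below 0 too, with a median of -1.22. For SDHD (-1.38) and ATP5L (-1.07) 8 of 10 neighbours were below 0, with medians of -0.66 and -0.98. NDUFA11 (1.25) and NDUFA10 (1.24) had 9 of 10 neighbours above 0, with medians of 0.72 and 0.39, and none of the neighbours of NDUFA10, NDUFA13 or NDUFB2 exceeded the member itself. NDUFB2 (1.19) had 6 of 10 neighbours below 0, with a median of -0.45. Neighbours below 0 numbered 9 of 10 for COX4I2, 7 for UQCRFS1 and ATP5SL, and 5 for NDUFA9. Those above 0 numbered 8 of 10 for ATP5I and 7 for ATP5G1 and NDUFA13. All symbols tested had a median of -0.12, with 38.8% called lower in Z138 and 28.7% higher. Their share on either side of 0 was not counted, so these neighbour counts have no baseline. TIMM8B, which precedes SDHD in RefSeq order, was at 21.1 and 21.1 FPKM in Mino and 26.5 and 28.2 in Z138 (0.36, not passing the test under the TPM scaling), opposite in direction to SDHD.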
